A study of Homo sapiens with 9 samples.

Results

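RNA polymerase II (RNAPII) peaks on very short, stand-alone protein-coding genes were examined in HEK293, a cell line from human embryonic kidney, with RECQL5 depleted or overexpressed. A gene was a member when its longest protein-coding transcript in GENCODE on GRCh37 spanned under 2 kb and it lay over 2 kb from any other protein-coding gene, and a peak was a member when it overlapped such a gene by at least 1 bp. The large histone gene cluster on chromosome 6 was left out, which removed 13 genes. Of 19821 annotated protein-coding genes, 690 met the rule, of which 490 had 1 exon and 200 had 2 or more. Their peaks numbered 269 of the 142069 peaks in the 5 lists together: 16 of 5287 with the control shRNA, 55 of 23698 upon shRNA5, 62 of 32124 upon shRNA7, 79 of 47060 without doxycycline and 57 of 33900 with doxycycline. These are 0.303% (0.186 to 0.491), 0.232% (0.178 to 0.302), 0.193% (0.151 to 0.247), 0.168% (0.135 to 0.209) and 0.168% (0.13 to 0.218) of the respective lists.

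RNAPII was measured by chromatin immunoprecipitation and sequencing, with 1 library per condition. In the hairpin arm, HEK293 cells were infected with lentivirus that carried shRNA5 or shRNA7 against RECQL5, or a control shRNA, which the methods describe as the empty pLKO.1 vector. In the doxycycline arm, HEK293 T-REx cells carried a full-length RECQL5 plasmid (pcDNA4/TO-RECQL5) under a doxycycline-inducible promoter, were selected with Zeocin, and received 0.0 or 1.0 ng/ml doxycycline, so the cells without the drug carried the plasmid too. Non-specific IgG libraries, 4 in all, served as background: each hairpin had its own, and the labels name a single untreated one for the doxycycline arm. No library had a replicate, so no condition could be tested against another; intervals below are 95% intervals (Wilson for shares and folds of counts, order statistics for medians) and cover counting error only. Library totals are not part of the peak lists. The methods state similar read numbers within each arm, higher in the hairpin arm, without a total per library. Tags are the raw numbers of sequenced reads within peaks. VIM, a mesenchymal filament gene that HEK293 cells express, had a peak in every list, the 6 HEK293 markers had 1 to 5 with a peak per list, and none of 8 markers of liver, blood, islet, muscle or thyroid had a peak in any list.

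RNAPII starts transcription at the promoter, often pauses shortly downstream, and continues past the 3′ end of the gene before it is released. On a gene of under 2 kb these stages lie within the width of a single ChIP-seq peak, so promoter, gene body and termination region are hard to separate there. Many very short human genes have no introns, and among them are inducible regulators such as JUND, ID1 and CEBPB, histones, and large families expressed in a single tissue, such as olfactory receptors and keratin-associated proteins. RECQL5 is a RecQ-family DNA helicase that binds RNAPII directly.

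Of the 14 members that had a peak in every list, 8 had a summit within 100 bp of the annotated start in all 5 lists. The 120 bases before the start of these 8 genes are shown, since this is where RNAPII is loaded onto them. They were read 5′ to 3′ along the direction of transcription from GRCh37. Capitals mark TATAAA lying 15 to 40 bases before the start (sense strand only), and CCAAT or GGGCGG on either strand (as ATTGG or CCGCCC when read on the other). The genes are GADD45G (chr9:92219807-92219926, + strand), H1-10 (chr3:129035130-129035249, − strand), H4C16 (chr12:14924066-14924185, − strand), ID1 (chr20:30192966-30193085, + strand), ID3 (chr1:23885993-23886112, − strand), JUND (chr19:18392433-18392552, − strand), SF3B5 (chr6:144416711-144416830, − strand) and UBB (chr17:16284285-16284404, + strand).
GADD45G: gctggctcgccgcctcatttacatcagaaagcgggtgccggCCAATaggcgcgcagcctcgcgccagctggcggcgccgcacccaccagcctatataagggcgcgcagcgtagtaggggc
H1-10: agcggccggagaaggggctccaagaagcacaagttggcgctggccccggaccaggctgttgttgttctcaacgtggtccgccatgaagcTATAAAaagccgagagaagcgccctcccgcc
H4C16: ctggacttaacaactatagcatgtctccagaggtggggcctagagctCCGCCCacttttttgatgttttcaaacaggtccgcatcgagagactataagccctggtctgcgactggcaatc
ID1: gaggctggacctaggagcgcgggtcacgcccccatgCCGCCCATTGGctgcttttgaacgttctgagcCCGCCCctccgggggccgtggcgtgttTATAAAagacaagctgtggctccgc
ID3: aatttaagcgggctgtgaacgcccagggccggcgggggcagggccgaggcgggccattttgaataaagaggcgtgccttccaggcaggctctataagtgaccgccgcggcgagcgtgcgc
JUND: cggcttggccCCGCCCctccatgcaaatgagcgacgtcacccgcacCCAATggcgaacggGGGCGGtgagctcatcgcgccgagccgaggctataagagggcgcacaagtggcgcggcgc
SF3B5: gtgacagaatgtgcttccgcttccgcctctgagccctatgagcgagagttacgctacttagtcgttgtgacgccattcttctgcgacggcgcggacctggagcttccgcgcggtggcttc
UBB: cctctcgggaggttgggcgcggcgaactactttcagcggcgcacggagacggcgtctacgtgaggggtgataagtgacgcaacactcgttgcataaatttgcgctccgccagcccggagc

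TATAAA stood in this window before H1-10, the gene of a linker histone, and before ID1, an inhibitor of basic helix-loop-helix factors. CCAAT stood before GADD45G and JUND and, on the other strand, before ID1. In ID3, SF3B5 and UBB none of the 3 motifs occurred in the 120 bases shown, which says only that these letters are not in the window. Among all 73 members with a peak in any list, TATAAA was found before 9 (12.3%, 6.62 to 21.8), against 12.3% (9.96 to 15.2) of the 617 members without a peak, 1.75% (1.43 to 2.12) of the 5558 longer isolated genes with a peak and 4.29% of all 10138 isolated genes. GGGCGG within 150 bases before the start was found in 46.6% (35.6 to 57.9) of the members with a peak, 9.40% (7.34 to 12) of those without and 45.4% of all isolated genes. For CCAAT the shares were 31.5% (22 to 42.9), 21.9% (18.8 to 25.3) and 24.9%. The ratio of observed to expected CpG over the 300 bases around the start (250 before, 50 after) had a median of 0.781 (0.689 to 0.846) in members with a peak and 0.205 (0.187 to 0.226) in members without, beside 0.836 (0.829 to 0.842) in longer isolated genes with a peak. A 32-base word was called not unique when it occurred again anywhere in the genome, the same gene included. Over 50% of the words were not unique in 8 of 73 members with a peak (11%, 5.66 to 20.2). Without a peak this held for 153 of 617 members (24.8%, 21.6 to 28.4). No test was made of these differences.

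A peak in any list was present on 73 of the 690 members (10.6%, 8.5 to 13.1) and absent from 617. Of the isolated genes of 2 to 10 kb, 736 of 1999 (36.8%, 34.7 to 39.0) had one. The members with a peak had a median span of 1472 bp and those without of 1029 bp. Peaks were found on 36 of 490 single-exon members (7.35%, 5.35 to 10) and 37 of 200 with more exons (18.5%, 13.7 to 24.5). Among genes of 2 to 10 kb the single-exon share was 40% (33.7 to 46.7) and the multi-exon share 36.4% (34.2 to 38.7). By list, the number of members with a peak was 14 with the control shRNA (2.03%, 1.21 to 3.38), 48 upon shRNA5 (6.96%, 5.29 to 9.10), 56 upon shRNA7 (8.12%, 6.30 to 10.4), 62 without doxycycline (8.99%, 7.07 to 11.4) and 51 with it (7.39%, 5.67 to 9.59).

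**Figure D1:**
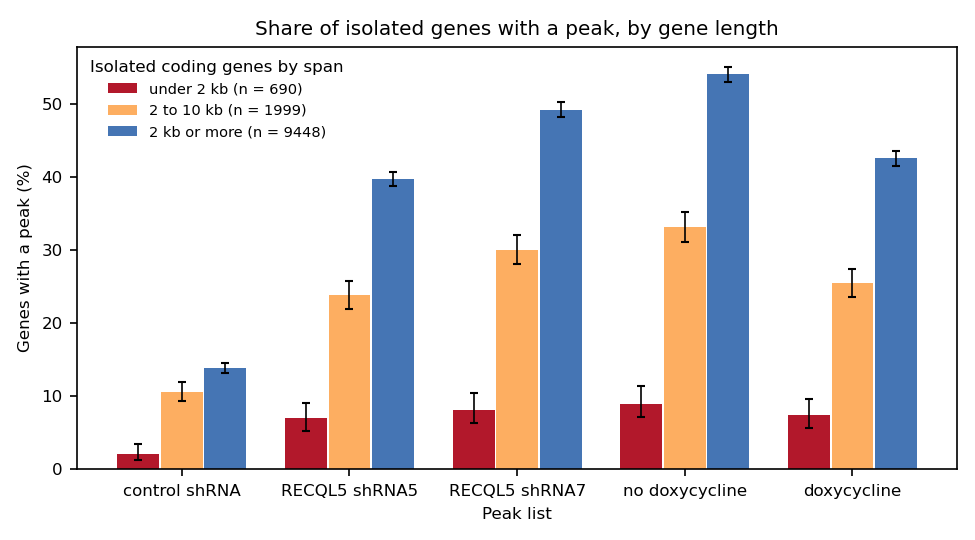
Share of isolated protein-coding genes with a peak (y axis, percent) in each peak list (x axis), for genes under 2 kb, of 2 to 10 kb and of 2 kb or more; bars are shares of 1 library and error bars 95% Wilson intervals. In each list the share on genes under 2 kb, 2.03 to 8.99%, was the lowest of the 3 classes, with intervals that did not meet those of the other classes.

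Gene families typical of other tissues carried few peaks. The lists of olfactory and taste receptors, keratin-associated and cornified envelope proteins, interferons, defensins, globins and peptide hormones held 307 members, and 3 of them (0.977%, 0.333 to 2.83) had a peak in any list. None of 104 keratin-associated and cornified envelope genes, 18 interferons, 10 defensins or 8 taste receptors had one. OR10AD1 was the 1 of 156 olfactory receptors with a peak, upon shRNA7, of 75 tags with its summit 1279 bp past the end of the gene. HCRT, the gene of the hypothalamic peptide orexin, carried 9 tags without doxycycline. HBQ1, the theta globin gene, had a peak upon shRNA5 (181 tags), shRNA7 (445 tags) and with doxycycline (53 tags), each with a summit past its end. Outside these lists, 70 of 383 members had a peak (18.3%, 14.7 to 22.5).

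The list of immediate early and stress regulators had 5 members, and 4 of them had a peak in at least 1 list, beside 55.5% of all isolated genes and 10.6% of all members. Of the 5, 2 had a peak with the control shRNA, 3 upon shRNA5, and 4 in each of the other lists. JUND, the gene of an AP-1 transcription factor, spans chr19:18390504-18392432 in 1 exon and had 200, 307, 959, 417 and 423 tags in the control, shRNA5, shRNA7, no-doxycycline and doxycycline lists, an order used for all values below. GADD45G, a growth arrest and DNA damage regulator, had 51, 138, 528, 61 and 49 tags. Within the hairpin arm the tags of both genes were highest upon shRNA7. The JUND peak upon shRNA7 also reached IQCN, a neighbouring gene, so its 959 tags cannot all be assigned to JUND. CEBPB, a leucine zipper transcription factor, had no peak with the control shRNA, and 121, 460, 40 and 71 tags in the other 4 lists. HSPB1, a small heat shock protein, had no peak with the control shRNA or shRNA5 and 238, 45 and 39 tags elsewhere.

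ID1 and ID3, the 2 members of the ID family of differentiation inhibitors, had a peak in every list. ID1, at chr20:30193086-30194318, had 88, 68, 324, 167 and 91 tags. ID3, at chr1:23884417-23885992, had 137, 165, 602, 368 and 288 tags. For ID1 the shRNA5 value was below the control value, and for both genes the shRNA7 value was the highest of the hairpin arm. Of 16 members among developmental transcription factors, 0, 3, 3, 3 and 4 had a peak, beside 13.0, 37.5, 46.5, 51.0 and 40.2% of all isolated genes. ATOH7, HES6 and MESP1, all basic helix-loop-helix factors, were present in every list but the control. HES6 had 49, 134, 44 and 39 tags in those lists, with its summits at −10 to 45 bp from the start.

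Histones outside the chromosome 6 cluster had 8 members, of which 2, 4, 4, 4 and 3 carried a peak. Of all isolated genes, 13.0, 37.5, 46.5, 51.0 and 40.2% did. H4C16, an H4 gene of 412 bp at chr12:14923654-14924065, had 260, 252, 1506, 257 and 230 tags. The control and shRNA5 values differed little for it, while its peak upon shRNA7 was 13309 bp long, against 3879 bp with the control shRNA. H1-10, at chr3:129033614-129035129, had 193, 383, 1028, 249 and 133 tags. H2AJ and the histone variant gene H3-5 had no peak with the control shRNA, and H2AJ had 56, 125, 35 and 28 tags in the other lists. Of the 32-base words of H3-5, 30.4% are not unique in the genome. Its 88, 120 and 19 tags upon shRNA5, upon shRNA7 and in the cells without the drug are therefore uncertain.

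Of the other genes with a peak in every list, UBB, PCBP1, SF3B5, POP7 and TBCC are described here; all but UBB belong to none of the gene lists and were chosen after their values were seen. UBB, which encodes polyubiquitin and spans chr17:16284405-16286054, had 300, 558, 1022, 266 and 290 tags. Of its 32-base words 35.3% are not unique in the genome, with copies within UBB counted, so these tags are uncertain. PCBP1, an intronless RNA-binding protein gene at chr2:70314609-70316335, had 322, 557, 1418, 430 and 404 tags. Its nearest summit lay before the annotated start in every list, at −665 to −229 bp. SF3B5, a subunit of the SF3b splicing complex, had 78, 173, 257, 75 and 45 tags, and POP7, a protein of RNase P, had 51, 62, 156, 97 and 73. TBCC, a tubulin folding cofactor, had 142, 261, 455, 109 and 118 tags. For these 5 genes the tags were lowest with the control shRNA and highest with shRNA7 within the hairpin arm. The respiratory chain list had 2 members, COX8A of complex IV and the complex II assembly factor SDHAF1. COX8A had a peak in every list but the control (57, 392, 26 and 48 tags), and SDHAF1 in those upon shRNA5 and in both doxycycline lists (104, 42 and 85 tags). The 1 ribosomal protein gene among the members, RPL10L, had no peak.

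**Figure D2:**
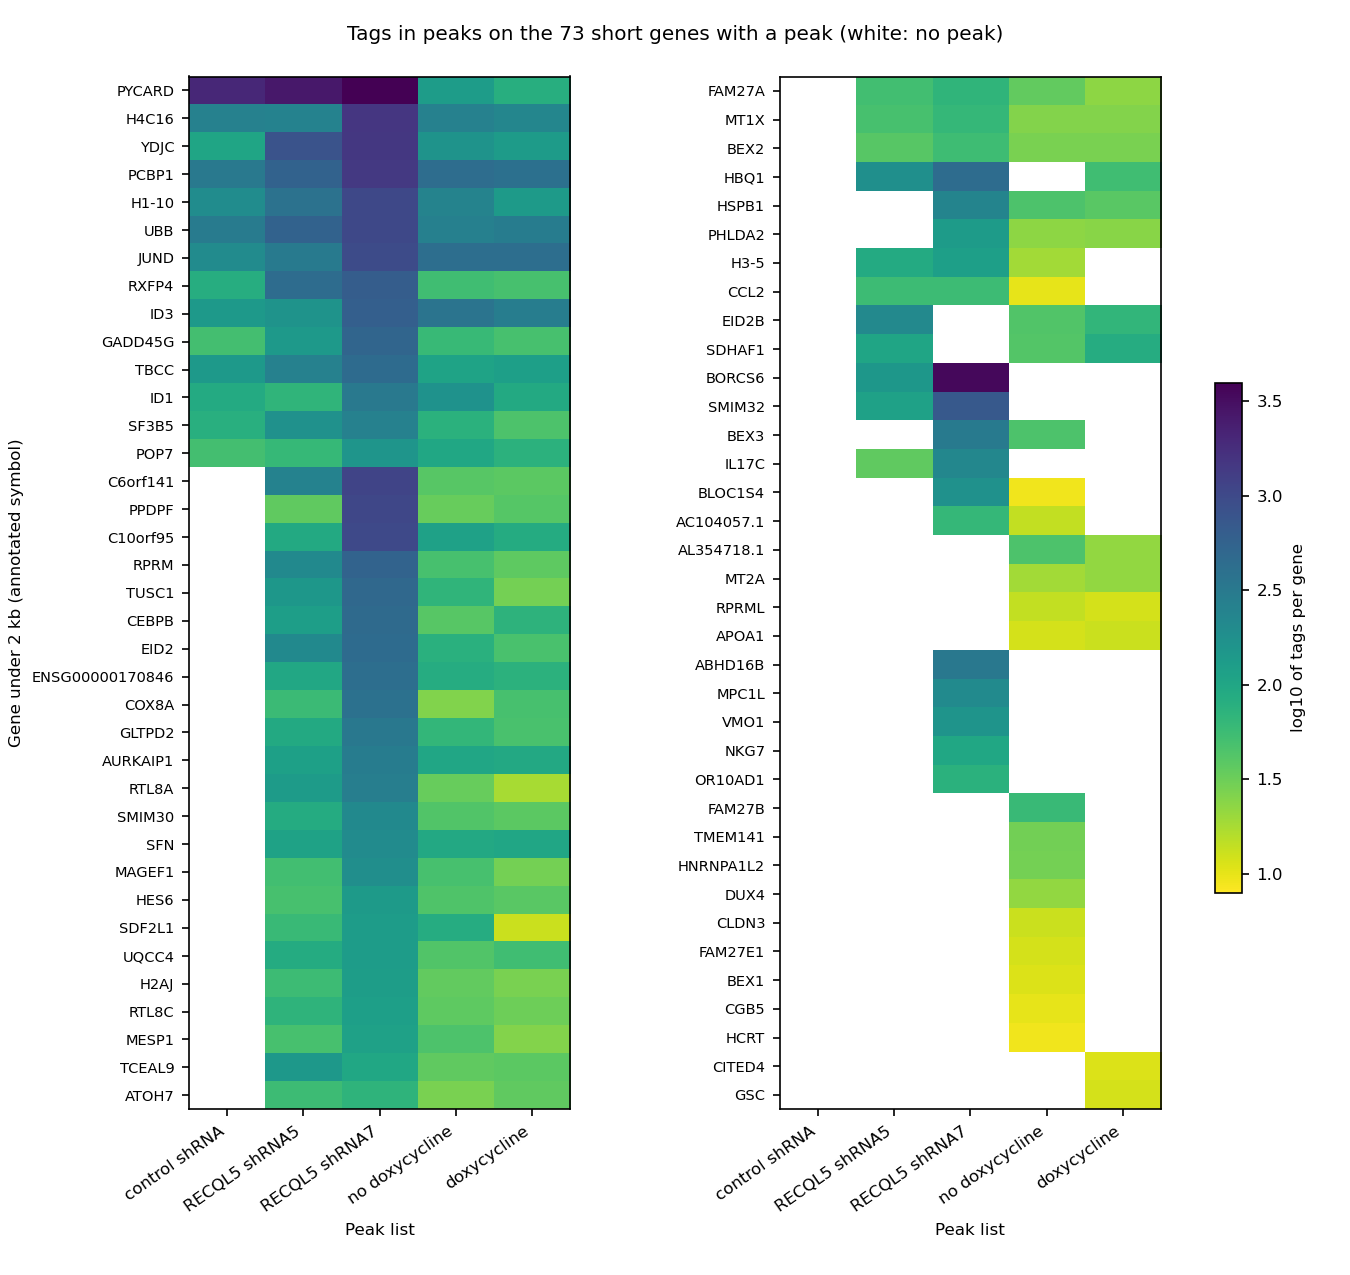
Tags in peaks summed per gene (colour, log10) for the 73 members with a peak, 1 row per gene and 1 column per peak list, in 2 panels; white marks no peak, and rows are ordered by the number of lists and then by tags upon shRNA7. The top 14 rows have a peak in every list, and the 26 rows after them have one in every list but the control.

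All 14 genes of the control list were in the other 4 lists: GADD45G, H1-10, H4C16, ID1, ID3, JUND, PCBP1, POP7, PYCARD, RXFP4, SF3B5, TBCC, UBB and YDJC. A further 26 genes had a peak in every list but the control. Of all isolated genes with a control peak, 98.9% were also in the shRNA5 list, 96.5% in the shRNA7 list, 99.6% in the list without doxycycline and 98.9% in that with it. Genes in all 5 lists were 19.2% (11.8 to 29.7) of the 73 members with a peak, beside 22.2% of all isolated genes with a peak. Between the doxycycline lists, 48 genes were shared, 77.4% of the 62 without the drug and 94.1% of the 51 with it, where 76.4% and 97.1% of all isolated genes with a peak were shared. Between the hairpins, 46 genes were shared, 95.8% of the 48 upon shRNA5 and 82.1% of the 56 upon shRNA7, where 96.2% and 77.7% of all were. The control list held 29.2% of the genes of the shRNA5 list and 25% of those of the shRNA7 list, where it held 34.3% and 27% of all. The genes with a peak in 1 list were 5 upon shRNA7 (ABHD16B, MPC1L, NKG7, OR10AD1 and VMO1), 9 without doxycycline and 2 with it (CITED4 and GSC). These are 6.85% (2.96 to 15.1), 12.3% (6.62 to 21.8) and 2.74% (0.755 to 9.45) of the 73 members with a peak, beside 3.66%, 9.36% and 0.888% of all isolated genes with a peak.

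The form of the peaks differed between lists. Their median length was 2197 bp (1187 to 3111) with the control shRNA, 1584 bp (1404 to 2163) upon shRNA5, 3555 bp (2270 to 5398) upon shRNA7, 969 bp (833 to 1092) without doxycycline and 816 bp (751 to 1167) with it. The median tags per kb of peak were 54.2 (47.4 to 67.0), 55.6 (47.8 to 59.1), 70.9 (57.7 to 80.0), 33.0 (27.9 to 36.9) and 42.3 (36.9 to 47.1). On genes of 2 to 10 kb the median peak length was 2108, 1966, 2673, 854 and 891 bp. A peak covered the whole gene in 4 of 16, 12 of 55, 28 of 63, 6 of 79 and 5 of 57 gene–peak pairs (1 peak upon shRNA7 overlapped 2 members, VMO1 and GLTPD2). The share was 44.4% (32.9 to 56.7) upon shRNA7 and 21.8% (13.0 to 34.4) upon shRNA5. Upon shRNA7, 10 of 63 pairs (15.9%, 8.86 to 26.8) had a peak that also reached another protein-coding gene, against 1 with the control shRNA, 2 upon shRNA5 and 0 of 79 and 0 of 57 in the doxycycline arm, which allow shares of up to 4.64% and 6.31% (upper Wilson bounds). On genes of 2 to 10 kb the share upon shRNA7 was 12.4% (10.4 to 14.8), within the members' interval.

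The summit lay near the start of the gene in all lists. Its median position was 45 bp past the start with the control shRNA (32 to 537), 43 bp upon shRNA5 (17 to 536), 67.5 bp upon shRNA7 (37 to 820), 69 bp without doxycycline (49 to 152) and 63 bp with it (32 to 97). On genes of 2 to 10 kb it was 182, 276, 472, 737 and 173.5 bp. A member had a summit within 500 bp of its start in 11 of 14 genes with a peak (78.6%, 52.4 to 92.4), 35 of 48 (72.9%, 59.0 to 83.4), 32 of 56 (57.1%, 44.1 to 69.2), 52 of 62 (83.9%, 72.8 to 91.0) and 40 of 51 (78.4%, 65.4 to 87.5). On genes of 2 to 10 kb these shares were 72.0, 71.2, 66.7, 79.2 and 86.8%, each within the interval of the members. Summits over 500 bp past the end of the gene made up 15 of 63 pairs upon shRNA7 (23.8%, 15 to 35.6), against 1 of 16, 4 of 55, 3 of 79 and 2 of 57 in the other lists. On genes of 2 to 10 kb that share upon shRNA7 was 16.2% (13.9 to 18.8).

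**Figure D3:**
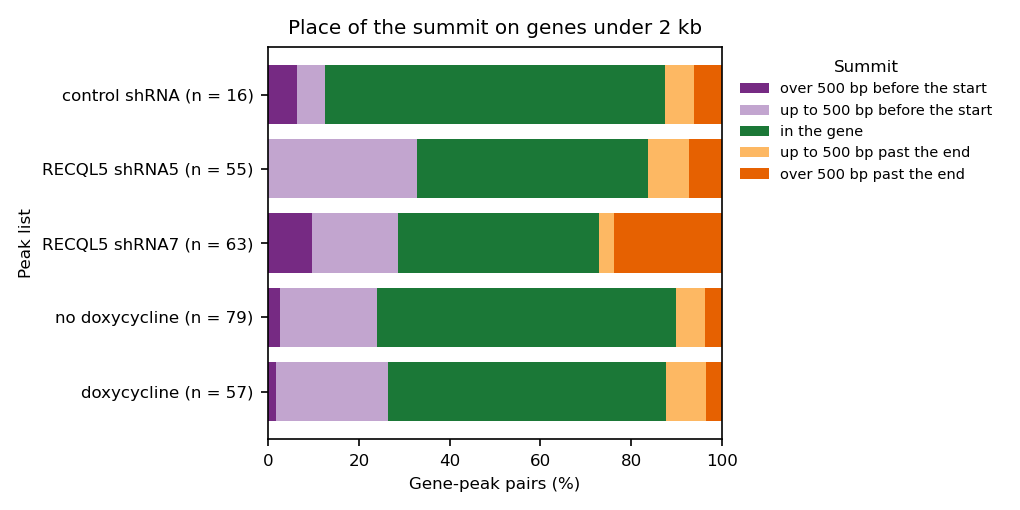
Place of the peak summit relative to the gene, as the share of gene–peak pairs (x axis, percent) in each peak list (y axis, with the number of pairs); colours run from over 500 bp before the start to over 500 bp past the end. Upon shRNA7 the part over 500 bp past the end, 23.8%, is the widest of the 5 lists, and without doxycycline 65.8% of summits lie in the gene.

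Several of the largest values on members belonged to peaks that ran far beyond the gene. PYCARD, the inflammasome adaptor gene, had 1982, 2635 and 3980 tags in the hairpin arm. Those peaks were 22439 to 23688 bp long, on a gene that spans 1275 bp. Their summits lay 21270 to 21306 bp past its end. With the control shRNA and shRNA5 they did not reach its start. In the doxycycline arm the PYCARD peaks had 129 and 81 tags. BORCS6, a gene for a lysosome positioning factor, had 148 tags upon shRNA5 and 3487 upon shRNA7 and no peak elsewhere. Its longer shRNA7 peak reached AURKB, the gene of a mitotic kinase, with its summit at −20456 bp from the start of BORCS6. YDJC had 103, 802, 1467, 163 and 132 tags, and its peaks upon shRNA5 and shRNA7 reached UBE2L3, a ubiquitin-conjugating enzyme gene. RXFP4, a relaxin family receptor gene, had 82, 447, 639, 53 and 49 tags, with the nearest summit at −434 to 3383 bp from its start, and its shRNA7 peak reached ARHGEF2. Upon shRNA7 the tags of BORCS6, YDJC and RXFP4 cannot be told apart from those of the neighbouring gene. The same holds for most of the YDJC tags upon shRNA5, 653 of 802. The PYCARD tags of the hairpin arm cannot be assigned to PYCARD.

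RECQL5 depletion was compared with the control shRNA by the number of members with a peak. There were 48 genes upon shRNA5 against 14, a fold of 3.43 (1.91 to 6.17), and 56 upon shRNA7, a fold of 4 (2.25 to 7.13). For isolated genes of 2 kb or more the folds were 2.88 (2.70 to 3.07) and 3.57 (3.35 to 3.79), and for those of 2 to 10 kb 2.26 (1.92 to 2.65) and 2.85 (2.44 to 3.33). The intervals for the members include the folds of the longer genes. The lists hold fewer peaks than the methods of the study state for the hairpin arm, by the largest factor in the control list, and these folds, gains and overlaps rest on that list as used. Of the 676 members without a control peak, 34 (5.03%) gained one upon shRNA5, where 28.3% of all isolated genes without a control peak did, and 42 (6.21%) upon shRNA7, where 39% of all did. None of the 14 members with a control peak lost it upon either hairpin, where 1.06% and 3.49% of all isolated genes did. When the 3 hairpin lists were limited to their 5287 peaks of highest significance score, 16 members upon shRNA5 and 22 upon shRNA7 had a peak against 14, and the folds were 1.14 (0.566 to 2.31) and 1.57 (0.814 to 3.04). For genes of 2 kb or more they were then 1.12 (1.04 to 1.21) and 1.34 (1.25 to 1.44).

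Among the members that gained a peak upon both hairpins, C6orf141 had 255 and 1109 tags, and PPDPF 36 and 1071. Both C6orf141 summits lay within 500 bp before its start. Its peak upon shRNA7 was 11105 bp long and ran 8819 bp past the end of the gene. Most of the PPDPF tags upon shRNA7 came from a second peak, of 927 tags, that reached PTK6 and had its summit 3867 bp past the end of PPDPF. With BORCS6 these were the 3 with the most tags of the 32 members with a peak upon both hairpins and none with the control shRNA.

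The 14 members with a peak in all lists allowed a comparison of tag numbers. Their median was 139.5 tags (78 to 300) with the control shRNA, 284 (138 to 558) upon shRNA5 and 799 (324 to 1467) upon shRNA7. The bases covered by peaks had a median of 2658.5 bp (1187 to 4105), 3810.5 bp (2354 to 6172) and 5886 bp (4326 to 13713), and the tags per kb of 56.2, 70.7 and 97.7. Upon shRNA5, 12 of 14 genes had more tags than with the control shRNA, and 4 had at least 2-fold more (28.6%), where 75.6% of all isolated genes with a peak in both lists did. None had 2-fold fewer, against 0.153% of all. Upon shRNA7, all 14 had at least 2-fold more tags, where 94.5% of all genes did, and none had 2-fold fewer, against 0.0786%. The largest ratios were those of YDJC (7.79 and 14.2), RXFP4 (5.45 and 7.79) and GADD45G (2.71 and 10.4). Of the 802 YDJC tags upon shRNA5, 653 lay in a second peak that reached UBE2L3, and 149 in the peak across its start. Upon shRNA7 the peaks of YDJC and RXFP4 also reached a neighbouring gene. The smallest upon shRNA5 were those of ID1 (0.773), H4C16 (0.969) and ID3 (1.20), and upon shRNA7 those of PYCARD (2.01), POP7 (3.06) and TBCC (3.20). The PYCARD ratio is that of long peaks with summits far past the gene.

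**Figure D4:**
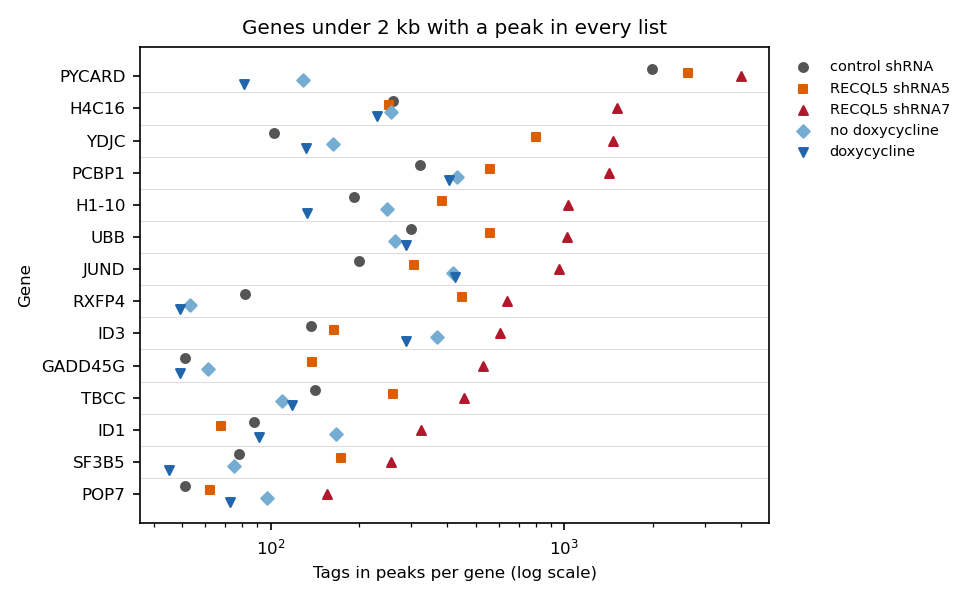
Tags in peaks per gene (x axis, log scale) for the 14 members with a peak in every list (y axis), with 1 point per list. Within the hairpin arm the shRNA7 point lies farthest right for each gene. The shRNA5 point lies left of the control point for ID1 (68 against 88 tags) and H4C16 (252 against 260). Tags are raw numbers, so points of different arms are not on the same scale.

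The median ratio of tags over these 14 genes was 1.78 upon shRNA5 and 4.40 upon shRNA7. Over isolated genes of 2 kb or more with a peak in both lists it was 3.12 (n = 1291) and 6.19 (n = 1259). The ratio of the members relative to the longer genes was therefore 0.572 (0.386 to 0.868) and 0.711 (0.518 to 1.26). Tags summed over a gene also move with the length its peaks cover, and the median ratio of peak bases was 1.17 and 2.61 on the members and 2.59 and 4.75 on the longer genes. Per kb of peak, the members' ratio relative to the longer genes was 1.10 (0.882 to 1.28) and 1.44 (1.11 to 1.62). When longer genes were represented by the peaks on their first 2 kb alone, the relative ratio of tags was 0.864 (0.583 to 1.31) and 1.31 (0.955 to 2.32). Relative to genes of 2 to 10 kb, the closest in length, it was 0.7507 (0.5068 to 1.139) and 0.9288 (0.6765 to 1.645). Per kb of peak, the ratio relative to that class was 0.9937 (0.7955 to 1.154) and 1.117 (0.8624 to 1.255). All intervals against this class include 1. The direction of the comparison with longer genes thus depended on the quantity and on the part of the longer gene taken, and both hairpins share the 1 control library.

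The 3′ extent of the peaks was compared over the same 14 genes. Peaks ended past the gene on 7 of 14 genes with the control shRNA, 11 upon shRNA5 and 13 upon shRNA7, and over 2 kb past it on 2, 5 and 11. The median extent past the end was 286.5 bp (−970 to 1482), 1559 bp (−594 to 2999) and 3357 bp (1347 to 12206), where a negative value lies within the gene. The 3 intervals overlap. The median extent before the start was 643.5, 773.5 and 1104 bp. In the doxycycline arm the median extent past the end was 1224.5 bp in untreated cells and 655 bp in treated cells. Peaks of neighbouring genes were not removed from these values, and 4 of the 14 genes, among them JUND, RXFP4 and YDJC, had a peak upon shRNA7 that reached another gene. On PYCARD the peak ran 21970 bp past the end already with the control shRNA. The extent was not set beside that on longer genes. On genes of 2 kb or more the covered length rose more, with median ratios of 2.59 upon shRNA5 and 4.75 upon shRNA7. On the members these ratios were 1.17 and 2.61, and on genes of 2 to 10 kb 1.71 and 2.64. Relative to genes of 2 to 10 kb the members' ratio was 0.685 (0.596 to 1.27) and 0.988 (0.633 to 1.48).

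RECQL5 overexpression was compared with the same cells without doxycycline. The number of members with a peak was 51 against 62, a fold of 0.823 (0.569 to 1.19), beside 0.787 (0.756 to 0.821) for isolated genes of 2 kb or more. Of the 62 genes, 14 (22.6%) lost their peak, where 23.5% of all isolated genes did, and 3 of 628 (0.478%) gained one, where 2.42% of all did. Among the 14, FAM27B (59 tags), BEX3 (45) and TMEM141 (30) had the most tags without the drug. Of the 32-base words of FAM27B, 97.5% are not unique in the genome. The 3 genes gained were HBQ1 (53 tags), GSC, a homeobox factor (12), and CITED4, a transcriptional coactivator (11).

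On the 48 members with a peak in both doxycycline lists, the median ratio of tags with over without the drug was 0.877 (0.783 to 1.00), and 15 genes had more tags and 31 fewer. At least 2-fold more tags were present on 1 gene (2.08%), where 6.93% of all isolated genes had them, and at least 2-fold fewer on 3 (6.25%), where 12.2% had. SDHAF1 had 42 tags without and 85 with doxycycline, CEBPB 40 and 71, and EID2B 43 and 67, the 3 largest ratios among genes with at least 50 tags in one of the 2 lists (2.02, 1.78 and 1.56). SDF2L1, an endoplasmic reticulum chaperone cofactor, had 84 and 13 tags (0.155), TUSC1 68 and 29 (0.426) and H1-10 249 and 133 (0.534), the 3 smallest among such genes. Below that number of tags, COX8A had a ratio of 1.85, AL354718.1 of 0.489 and RTL8A of 0.529. UBB and TBCC had ratios of 1.09 and 1.08. Relative to isolated genes of 2 kb or more, whose median ratio was 0.947 (n = 3907), the members' ratio was 0.926 (0.826 to 1.06), an interval that includes 1. Per kb of peak it was 0.893 (0.809 to 0.95). At a score of at least 100 it was 0.868 (0.793 to 0.979) and with lists of equal length 0.855 (0.78 to 0.974). These intervals lie below 1, but the result depended on the setting and on the reference. At a fold enrichment of at least 10 the relative ratio of tags was 1.059. Per kb of peak, the ratio relative to the first 2 kb of longer genes was 0.997 (0.903 to 1.06). Relative to genes of 2 to 10 kb it was 0.953, and the intervals of these last values include 1. The covered length had a median ratio of 0.779 on the members and 0.783 on genes of 2 kb or more, and tags per kb 1.13 and 1.26.

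**Figure D5:**
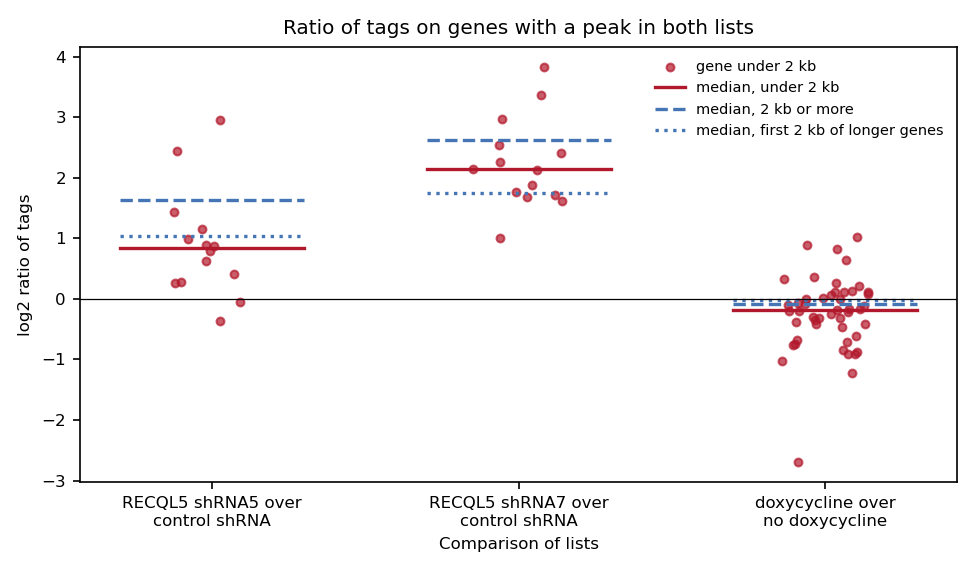
Ratio of tags per gene (y axis, log2) in 3 comparisons of lists (x axis), for members with a peak in both lists (points; n = 14, 14 and 48) with their median (solid line) and the medians of isolated genes of 2 kb or more, over all their peaks (dashed) or over their first 2 kb (dotted). Upon shRNA5 and shRNA7 the members' median, at ratios of 1.78 and 4.40, lies below the dashed line. The members' median lies below the dotted line upon shRNA5 (2.065) and above it upon shRNA7 (3.355). In the doxycycline comparison the 3 lines lie close to a ratio of 1.

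Some members carried 2 peaks. Of the members with a peak, 2 of 14 had 2 peaks in the control list, 7 of 48 upon shRNA5 and 7 of 56 upon shRNA7. In the doxycycline arm these were 17 of 62 in cells without the drug and 6 of 51 in treated cells. On isolated genes of 2 to 10 kb, 60 of 211, 185 of 476, 225 of 601, 235 of 662 and 153 of 509 had 2 or more. Without doxycycline the first summit lay within 500 bp of the start on all 17 genes and the second within 500 bp of the end on 15, and the second peak had fewer tags on 13. In the control, shRNA5, shRNA7 and doxycycline lists the first summit lay that near the start on 2 of 2, 6 of 7, 5 of 7 and 6 of 6 genes, and the second that near the end on 2, 5, 1 and 2. The second peak had fewer tags on 0, 1, 4 and 5 of them. First and second follow the order along the gene. On a gene under 2 kb, 500 bp at each end takes in a large part or all of it. These places are therefore partly set by gene length. On UBB the second summit lay 98 bp past the end with 46 of its 266 tags without doxycycline, and 140 bp past it with 36 of 290 tags with the drug. On ID1 it lay 77 bp past the end without doxycycline, with 32 tags against 135 in the first peak. With the control shRNA, H1-10 and JUND had 2 peaks, and the second held 131 of 193 and 110 of 200 tags. Upon shRNA7 both genes had 1 peak across the whole gene, of 5886 and 10412 bp.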

How the data were processed

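RNAPII and IgG chromatin from 9 libraries was sequenced and 5 RNAPII peak lists were used, each from 1 library. Per the submitters' processing notes, CASAVA 1.8, Bowtie 0.12.7, MACS 1.4.2 and hg19 were used, and reads in blacklisted regions were removed before peak calling. For each peak the authors deposited a count of tags, a significance score of −10 log10 of the MACS p-value, a fold enrichment over IgG and an FDR in percent; none was scaled to library size. The methods state similar read numbers for the libraries compared, as a range per arm; exact totals per library are not in the lists, so ratios of tags were set beside those of longer genes.

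The longest coding transcript stood for each gene (GENCODE v44 lifted to GRCh37), an overlap of at least 1 bp joined peak and gene, and the distance to other genes was taken between gene records. All peaks ended within the GRCh37 chromosomes. Python 3.11.15, numpy 2.4.6, pandas 2.3.3, scipy 1.17.1 and matplotlib 3.10.9 were used, and the overlap code was tested on simulated data. Isolated genes over 2 kb from other coding genes, of any length, were the background. With 1 library per group no test was made.

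Named genes were members of the gene lists with a peak in at least 3 lists, the 6 with the highest mean percentile of tags, the 3 largest and 3 smallest tag ratios per comparison among genes of at least 50 tags, and the 3 with most tags among those with a peak in 1 side of a comparison only. HCRT, OR10AD1, RPL10L, and the genes listed for a pattern of lists or for a peak that reached a neighbour, were named after their values were seen. The members and gene lists were chosen with earlier results of these data known. Alternatives numbered 10 planned and 4 added after seeing the data. The neighbouring gene of 1 member is not reported here.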

Additional observations from a re-analysis of the deposited data

How the results depend on the processing

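No alternative could leave out a replicate, with 1 library per group. No paired analysis was possible because the groups hold a single library each and no test was made. Of 188 values under alternative settings, 160 stayed within the 95% interval of the reported value, and 28 left it. The relative tag ratio lay on the other side of 1 from the reported value in 6 of its values, 1 upon shRNA5, 4 upon shRNA7 and 1 for doxycycline; the cause was not tested unless named. With the lists of an arm limited to the same number of peaks, the folds in members with a peak were 1.143 upon shRNA5 and 1.571 upon shRNA7. The other alternatives gave 1.92 to 4 and 2.39 to 5.33. The shRNA5 fold of 1.92, at a fold enrichment of at least 10, had an interval of 0.996 to 3.71, which includes 1. The tag ratio relative to longer genes was 1.101 upon shRNA5 per kb of peak, across 1 from the reported 0.572, and 1.438 upon shRNA7. Upon shRNA7 it was also 1.046 at a fold enrichment of at least 10 and 1.102 with lists of equal length. It was 1.311 upon shRNA7 against the first 2 kb of longer genes, a setting chosen after seeing the data, and 1.059 for doxycycline at a fold enrichment of at least 10. The median summit position stayed within its interval in all 55 values. The share of a list on members was 0.1135% (control), 0.1013% (shRNA5), 0.0996% (shRNA7), 0.08925% (no doxycycline) and 0.07965% (doxycycline) with genes under 1.5 kb, by construction fewer. With the summit within the transcript it was 0.1182% (shRNA5), 0.0872% (shRNA7), 0.1105% (no doxycycline) and 0.1032% (doxycycline). At a fold enrichment of at least 10 it was 0.4703% (shRNA5), 0.4003% (shRNA7) and 0.2959% (doxycycline), and at a score of at least 100 it was 0.2818% (shRNA7), 0.3291% (no doxycycline) and 0.3064% (doxycycline). With lists of equal length it was 0.3215% (shRNA5), 0.435% (shRNA7) and 0.2124% (no doxycycline). It was 0.268% upon shRNA7 at an FDR of at most 5%, 0.1463% (shRNA7) and 0.1296% (no doxycycline) for genes over 5 kb from others, and 0.2253% with doxycycline when peaks under 1 kb apart were merged. The lists hold only regions past the threshold of the peak caller, so a gene without a peak was not shown to lack RNAPII.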

Other observations

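Genes outside the gene lists, chosen after their values were seen, included small X-linked genes. BEX2 had 40, 55, 28 and 28 tags upon shRNA5, upon shRNA7, in untreated and in doxycycline-treated cells, and no peak with the control shRNA. TCEAL9 had 146, 98, 36 and 38 tags in the same lists, with more upon shRNA5 than upon shRNA7. RTL8A had 131, 279, 34 and 18 tags and RTL8C 69, 119, 37 and 31. Of their 32-base words, 18.6% and 19.6% are not unique in the genome. Of 8 metallothionein genes among the members, whose proteins bind metals, 6 had no peak in any list. A peak in any list was present on 55.5% of all isolated genes and 10.6% of all members. MT1X had 48, 63, 25 and 25 tags, and MT2A had 19 and 22 in the doxycycline arm and no peak in the hairpin arm; TATAAA stood before both. EID2B had 213 tags upon shRNA5 and no peak upon shRNA7.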
